A study of Mus musculus with 2 samples.

Results

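The genes described here encode nuclear receptors, transcription factors most of which carry a zinc finger DNA-binding domain and a pocket for a small ligand. The 37 members were taken as a fixed list of gene names, and every array probe set whose only gene symbol is one of them was used, which gave 98 probe sets for 36 genes out of 18193 genes that could be read in the same way. Nr1h2, which encodes the oxysterol receptor LXR beta, is not analysed here. RNA came from the adipose tissue of C57BL/6 mice, an inbred strain, which ate either the control diet CE-2 or the high fat diet HFD32 from 6 weeks of age until tissue was taken at 18 weeks. Both groups are of that strain, and the labels name no altered gene in either. RNA of 3 animals was pooled for each diet and put on 1 Affymetrix array, so there are 2 arrays in all. The labels give neither the fat depot nor the sex of the animals.

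Nuclear receptors read the metabolic and hormonal state of a cell. Peroxisome proliferator-activated receptors (PPARs), liver X receptors and the bile acid and xenobiotic receptors bind fatty acids, oxysterols, bile acids and foreign compounds, and most of them bind DNA together with a retinoid X receptor. Steroid receptors bind glucocorticoids, mineralocorticoids, estrogens and progestins, orphan receptors were named before any ligand was known, and the Nr4a receptors are controlled mainly by how much of them is made. In fat, PPAR gamma is the master regulator of adipocyte differentiation, and glucocorticoid and thyroid hormone receptors act on lipid turnover and heat production.

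Signals are on the log2 scale, as the authors deposited them, and a difference is the HFD32 signal minus the CE-2 signal, so that a difference of 1 or -1 is 2-fold. Each gene is represented by its brightest probe set, taken as the mean over the 2 arrays. Other probe sets are described for the receptor genes only, and genes of the other lists are given by their brightest probe set alone. Signals of different probe sets cannot be set against each other, because each has its own affinity. With 1 array per diet there is no replicate check and no test between the diets, and all differences are between these 2 pools. The only error that can be estimated is that of the probes: among 5131 genes with several probe sets, the differences of a gene's probe sets had an SD of 0.27, and in the 15 such receptor genes the SD was 0.26. A gene entered the counts if its mean signal reached 5.44, the median of all probe sets other than controls, called the floor here. Near background means below the 95th percentile of 83 probe sets of olfactory, vomeronasal and taste receptor genes, which was 4.92 on the CE-2 array and 4.95 on the HFD32 array.

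The label of the tissue can be set against its markers. Adipocyte markers were bright on both arrays, from 10.23 to 14.24 on CE-2 and from 9.49 to 14.21 on HFD32. Both arrays also carried transcripts of other organs. Of the hepatocyte markers above the floor, 21 of 21 were lower on HFD32, with a median difference of -5.25, and all 7 pancreas markers were at least 2-fold lower there, while 5 of 5 epididymis markers measured were at least 2-fold higher on the HFD32 array (median 4.41, or 3.81 with signals under background raised to it, from 3.54 to 5.59 and from 8.21 to 9.62). Lymphocyte markers had a median of -0.12 over the 4 above the floor, with Ms4a1 (-1.13) lowest and Cd8a (0.38) highest. With 1 array per diet, no difference can be given without the array that carries such transcripts.

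Most receptor genes differed little between the diets, and those that differed most were lower on HFD32. Of the 36 genes, 25 reached the floor, and 2 of these 25 were at least 2-fold lower, while 3.29% of all 11778 genes at or above the floor were. The 2 genes were Nr2f1 and Nr2f2. None of the 25 (0) was at least 2-fold higher, against 3.28% of all genes. At 1.5-fold, 6 of 25 were lower and 0 higher, against 8.52% and 8.20% of all genes. These 6 were Nr2f1, Nr2f2, Hnf4a, Thra, Nr3c1 and Nr4a1, and the median difference over the 25 genes was -0.19, while that of all genes was 0. In direction, 20 of the 25 were lower on HFD32 and 5 higher, against 49.3% of all genes lower. Centring each array on its own median, which moves the median of all genes by 0.07, gave 16 lower and 9 higher, against 40.7% of all genes lower. Over all 36 genes, dim ones included, the median difference was -0.14. On the level of single measurements, 5 of 53 receptor probe sets at or above the floor were at least 2-fold lower, against 3.13% of all such probe sets. All 3 probe sets of Nr2f2 above the floor are among the 5, so that gene is counted more than once.

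**Figure D1:**
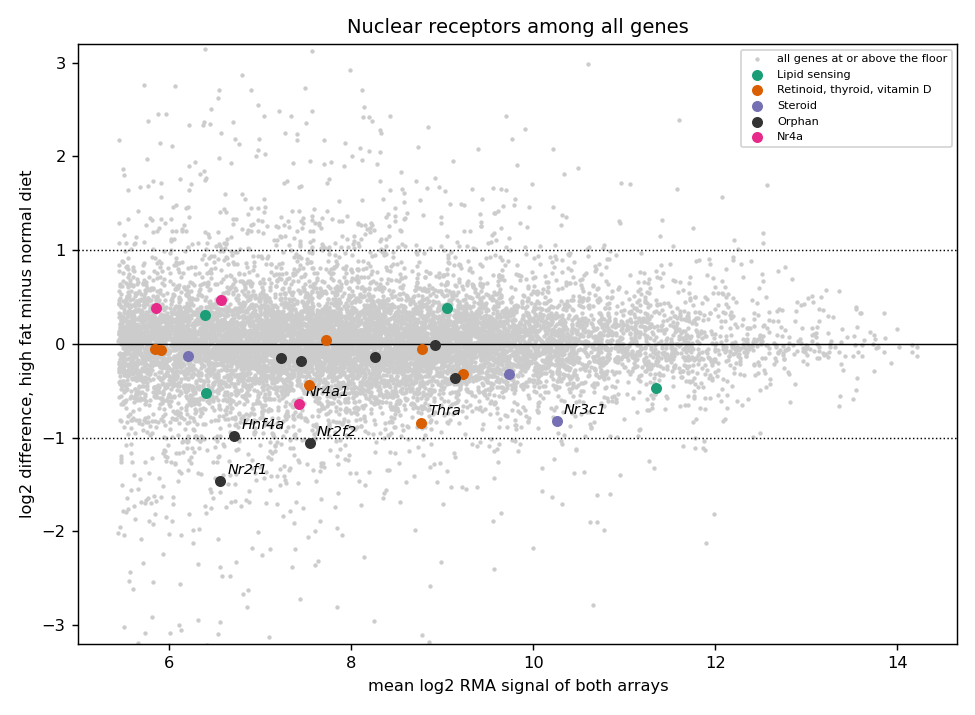
Difference between the diets (log2, high fat minus control) against mean log2 signal for all genes at or above the floor (grey) and for the 25 nuclear receptor genes among them (coloured by class). Dotted lines mark 2-fold, genes beyond the axis are not drawn, and only Nr2f1 and Nr2f2 of the receptors lie below the lower dotted line.

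The orphan receptors held the largest differences. Of 12 orphan genes, 8 reached the floor and all 8 were lower on HFD32, with a median of -0.28 and a range from -1.47 to -0.01, and without Nr2f1 and Nr2f2 the median was -0.17. Nr2f1 and Nr2f2 encode COUP-TFI and COUP-TFII, close relatives that mostly repress transcription. COUP-TFII is known for vein identity in the endothelium and for its role in mesenchyme, including the precursors of fat cells. Nr2f1 has a single probe set, which read 7.29 on CE-2 and 5.83 on HFD32, a difference of -1.47 or 2.77-fold lower. Only 1.72% of all genes above the floor had a lower difference. Nr2f2 was lower on each of its 6 probe sets. Its representative read 8.07 and 7.01, a difference of -1.06 or 2.09-fold lower, and with each array centred on its median the difference was -0.99, just short of 2-fold. Its other 2 probe sets above the floor had signals of 7.73 and 6.38, and of 7.00 and 5.44, which are differences of -1.35 and -1.56. Another probe set, below the floor, read 5.63 and 4.40 and was near background on HFD32 alone, so its difference is known only as a lower bound. The remaining 2 were near background on both arrays and differed by -0.21 and -0.14. Thus the 3 probe sets of Nr2f2 above the floor each differed by more than 2-fold.

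Promoters of both genes are shown because they differed in the same direction and their upstream sequences can be compared. Each window runs from 250 bases before to 50 bases after the annotated start, 5′ to 3′ on the gene's strand, from RefSeq on build GRCm38.p6. The Nr2f1 window lies at chr13:78198824-78199123 on the minus strand and the Nr2f2 window at chr7:70366697-70366996 on the minus strand. Capitals mark matches to the GC box letters GGGCGG or the CCAAT box letters CCAAT on either strand.
Nr2f1: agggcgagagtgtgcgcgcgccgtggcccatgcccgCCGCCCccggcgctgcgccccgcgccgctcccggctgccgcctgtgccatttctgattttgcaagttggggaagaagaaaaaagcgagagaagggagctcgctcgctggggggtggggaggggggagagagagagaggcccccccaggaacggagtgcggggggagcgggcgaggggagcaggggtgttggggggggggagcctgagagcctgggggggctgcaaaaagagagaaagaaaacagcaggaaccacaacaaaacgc
Nr2f2: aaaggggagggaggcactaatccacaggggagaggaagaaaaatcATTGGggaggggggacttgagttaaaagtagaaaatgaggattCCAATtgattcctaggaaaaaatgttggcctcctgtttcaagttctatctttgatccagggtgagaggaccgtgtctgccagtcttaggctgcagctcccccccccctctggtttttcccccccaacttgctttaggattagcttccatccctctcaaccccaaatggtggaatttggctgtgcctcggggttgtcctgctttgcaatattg
The Nr2f1 window shown is 68% G and C and has 1 match, a GC box, while the Nr2f2 window is 49.7% G and C and has 2, both CCAAT boxes. For Nr2f1 the outermost start was used. Another window of Nr2f1, at chr13:78196400-78196699 and not shown, has 0 matches to either motif. A GC box is found in 35.7% of all 32851 promoter windows and a CCAAT box in 37.4%. In this stretch the genes share neither of these matches.

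Markers of endothelium, mesothelium and smooth muscle differed in the same direction. All 8 endothelial markers measured were lower on HFD32, with a median difference of -0.53 and signals from 7.31 to 10.19 on CE-2 and from 6.83 to 9.89 on HFD32. All 8 mesothelial markers were lower as well (median -1.01, signals from 6.98 to 10.50 and from 5.85 to 9.60). Of 6 smooth muscle markers, the 5 above the floor were lower (median -1.71, all 6 from 4.57 to 12.40 and from 4.21 to 11.85), with Cnn1 at -3.54 and Myh11 at -3.25, while Myocd, a defining factor of that cell type, was near background on both arrays. Their part in the difference of Nr2f1 and Nr2f2 was not tested. Fibroblast markers, 9 of 9 above the floor, had a median of 0.09, with Pdgfra, a receptor of adipose progenitors, at -0.49 and Lum at 0.65. In whole tissue, fewer cells of a type and less RNA per cell cannot be told apart.

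Hnf4a, which encodes the master regulator of hepatocyte identity, read 7.20 on CE-2 and 6.22 on HFD32, a difference of -0.98 or 1.97-fold lower. Its 4 probe sets did not give 1 value. The other one above the floor read 5.58 and 5.54, a difference of -0.04, while 2 dim ones, near background on both arrays, differed by -0.75 and -1.16. The representative is of a kind that can match several transcripts, and without such probe sets the difference of Hnf4a was -0.04. Nr5a2, the liver and pancreas receptor LRH-1, read 5.58 and 4.75, so that it was near background on HFD32 alone and at least 1.55-fold lower there. Its other 3 probe sets were near background on both arrays. Nr0b2, which encodes SHP, a corepressor-like receptor with no DNA-binding domain that bile acids induce, read 5.29 and 5.13.

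Liver and pancreas transcripts differed far more than these receptors. Of 23 hepatocyte markers listed 22 were measured. The 21 above the floor were all lower on HFD32, and 20 of these passed 2-fold. Their median was -5.25, or -4.42 with signals under background raised to it. Alb, serum albumin, named outside the rule for naming genes, read 13.15 and 7.91, and the 22 markers ran from 3.26 to 13.81 on CE-2 and from 3.04 to 13.23 on HFD32, with Ass1 near background on both arrays. Cyp2e1, which adipocytes also express, had the smallest difference of the 21, -0.59. All 7 pancreas markers measured were at least 2-fold lower (median -3.00, or -2.66 with signals under background raised to it, from 7.61 to 9.22 on CE-2 and from 3.78 to 6.55 on HFD32). Their part in the differences of Hnf4a and Nr5a2 was not tested. Nr1h4, Nr1i2 and Nr1i3, which are also known from liver, were near background on both arrays.

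The remaining orphan receptors above the floor lay within 1.5-fold. Nr2c2, which encodes TR4, read 9.33 and 8.96 on its brightest probe set (-0.37), but 2 others above the floor differed by 0.18 and 0.23, and the median over its 6 probe sets was 0.18, so its direction depends on the probe set. Nr2c1, the related TR2, was lower on all 5, with 7.31 and 7.15 on the representative (-0.15). Rora, a receptor of the circadian clock and lipid metabolism, was level on its brightest probe set at 8.92 and 8.91, and its 7 probe sets above the floor spread from -0.05 to 0.48. Centring, which adds 0.07 to every difference alike, turned its sign. Esrra, an activator of mitochondrial genes, read 8.34 and 8.19 (-0.15), with its other probe set at -0.34. Nr2f6 read 7.54 and 7.35 (-0.19), and its other probe set differed by 0.08. Esrrg, a relative of Esrra in oxidative tissues, was dim, at 4.39 and 5.22, at least 1.23-fold higher, while its other 2 probe sets, near background on both arrays, differed by 0.36 and -0.64. Nr6a1, the germ cell nuclear factor, was near background on both arrays at 4.79 and 4.90.

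**Figure D2:**
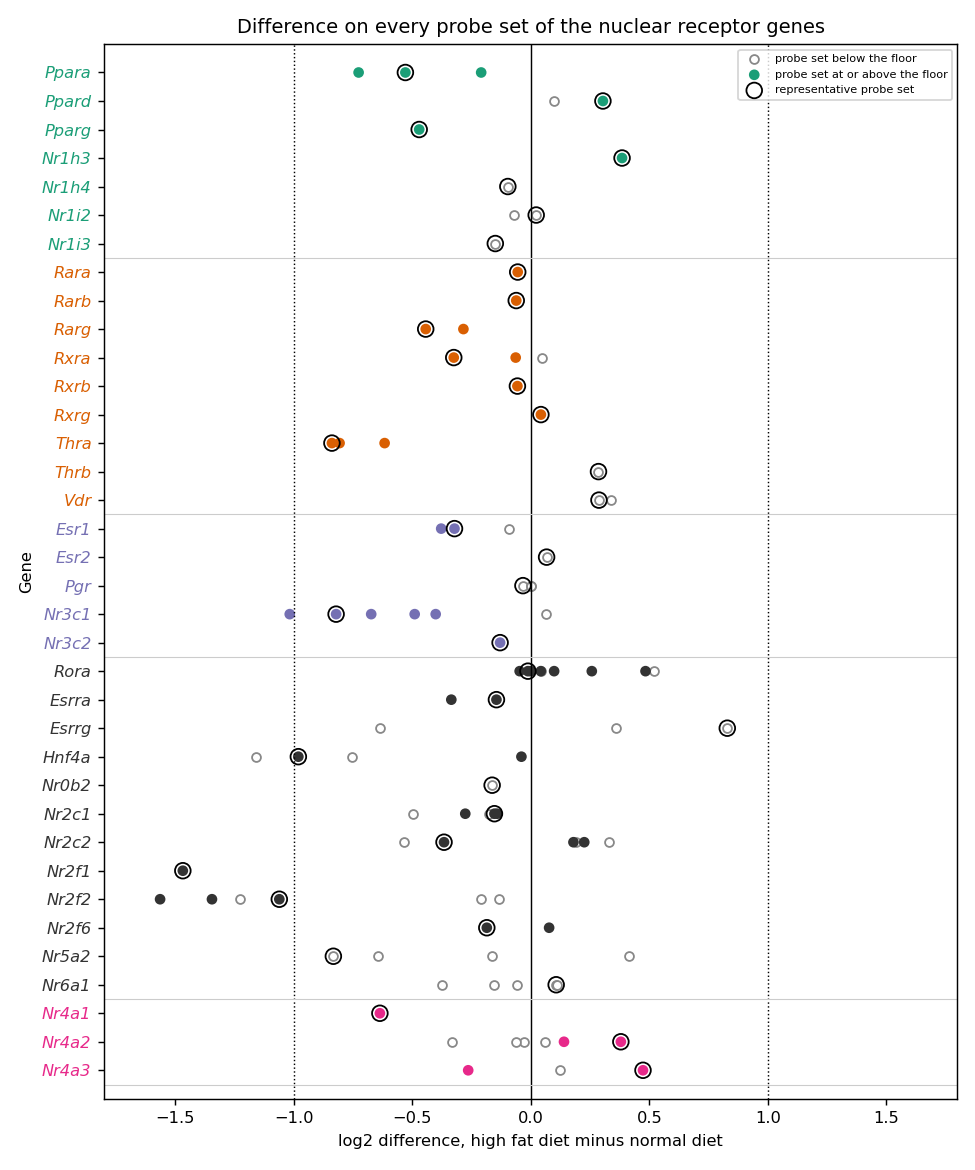
Difference (log2, high fat minus control diet) on each of the 98 probe sets of the 36 receptor genes, filled where the mean signal is at or above the floor, with the representative probe set circled and dotted lines at 2-fold. Nr2f2, Thra and Nr3c1 lie to the left on all their filled points, while Nr2c2, Nr4a3 and Rora have filled points on both sides of 0.

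Among the steroid receptors the glucocorticoid receptor stood lower on HFD32. Nr3c1, which encodes it, read 10.67 on CE-2 and 9.85 on HFD32, a difference of -0.82 or 1.77-fold lower. The 5 probe sets above the floor were all lower, from -1.02 to -0.40, and only the sixth, near background at 4.25 and 4.31, was not. Esr1, which encodes estrogen receptor alpha and restrains fat mass, read 9.90 and 9.57, a difference of -0.32, and its second probe set above the floor agreed in direction at -0.38. Nr3c2, the mineralocorticoid receptor that also binds glucocorticoids, read 6.27 and 6.14 (-0.13). Esr2 (4.69 and 4.75) and Pgr (3.36 and 3.32), the second estrogen receptor and the progesterone receptor, were near background on both arrays. The median of the 3 steroid receptors above the floor was -0.32, that of all 5 was -0.13, and that of the 2 above the 75th percentile of all probe sets was -0.57.

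Genes tied to glucocorticoid action were mostly slightly lower. Hsd11b1, the enzyme that regenerates active glucocorticoid inside fat cells, read 11.98 and 10.66, a difference of -1.32. The part of the liver transcripts of the CE-2 array in this difference was not tested. Of 15 known glucocorticoid targets, all above the floor, 13 were lower, against 49.3% of all genes. This list was not recounted with each array centred on its median, which adds 0.07 to every difference and left 40.7% of all genes lower. Some of the 13, Tsc22d3 among them, were lower by less than 0.07, so fewer would be lower on centring. Of the 13, 2 passed 2-fold, and the list median was -0.18. The 2 were Tat (-1.26), a liver enzyme that is also in the hepatocyte list, and Errfi1 (-1.07), an inhibitor of growth factor receptors. The highest were Mt2 (0.36) and Pnmt (0.13). Fkbp5, the target most often used as a readout of the receptor, read 9.34 and 9.15 and was named outside the rule for naming genes, as was Tsc22d3 at 10.67 and 10.64. Of the 5 estrogen and progesterone targets above the floor 4 were lower (median -0.29), with Igfbp4 at -0.49 and Xbp1 at -0.39 as the lowest, and Cxcl12 (0.71) and Tff1 (-0.01) as the highest.

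In the retinoid, thyroid and vitamin D class, Thra had the largest difference of the genes above the floor. Thra encodes thyroid hormone receptor alpha, the form found in most tissues, and it read 9.19 on CE-2 and 8.35 on HFD32, a difference of -0.84 or 1.79-fold lower. Its other 2 probe sets, at 8.07 and 7.45 and at 7.97 and 7.16, differed by -0.62 and -0.81, so all 3 were lower. Thrb, the beta form that predominates in liver, was near background on both arrays (4.47 and 4.75). Thyroid hormone targets went both ways, 3 higher and 3 lower of the 6 above the floor, with a median of -0.06. Ucp1, the uncoupling protein of brown fat, was lowest at -1.26, followed by Thrsp (-0.56), a lipogenic gene, while Hr (0.91), a corepressor induced by the hormone, and Bcl3 (0.48) were highest. Brown adipocyte markers were lower in 4 of the 5 above the floor (median -0.86), and Cox8b (0.45) was higher. The marker below the floor, Dio2, also listed among the ligand enzymes, went the other way as well. It read 4.20, near background, on CE-2 and 5.57 on HFD32, at least 1.57-fold higher. All 10 skeletal muscle markers were lower (median -1.89, from 6.30 to 10.78 on CE-2 and from 4.93 to 10.16 on HFD32). The part of brown fat and skeletal muscle transcripts in the difference of Thra was not tested.

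The retinoid receptors differed by less than Thra. Rarg, a retinoic acid receptor, read 7.76 and 7.32 (-0.44), with -0.28 on its second probe set. Rxra, the partner that most lipid sensing receptors need to bind DNA, read 9.40 and 9.07 (-0.33), with -0.06 on its other probe set above the floor. Rxrb (8.81 and 8.75), Rxrg (7.70 and 7.74), Rara (5.87 and 5.81) and Rarb (5.94 and 5.88) differed by -0.06 to 0.04, and centring, by its constant of 0.07, turned the sign of Rxrb, Rara and Rarb. Of the 7 genes of the class above the floor 6 were lower, with a median of -0.06, where that of all genes was 0. With centring these medians were 0.01 and 0.07. Vdr, the vitamin D receptor, lay just above background at 4.93 and 5.21 (0.29) and below the floor, and its second probe set was near background on CE-2. Of 8 retinoic acid targets measured, 4 were above the floor, 2 higher and 2 lower, with Hoxa5, a positional factor of fat depots, at -0.99, Rarb itself at -0.06, Dhrs3 at 0.13 and Tgm2 at 0.17, and their median of 0.03 and mean of -0.19 differ in sign. Among the enzymes that make or break down receptor ligands, Cyp7b1, which hydroxylates oxysterols and which liver also makes, differed most, from 6.89 to a signal near background at 4.54. Of that list 10 genes were above the floor, 5 higher and 5 lower, and the highest were Hsd11b2 and Aldh1a2, each at 0.49.

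**Figure D3:**
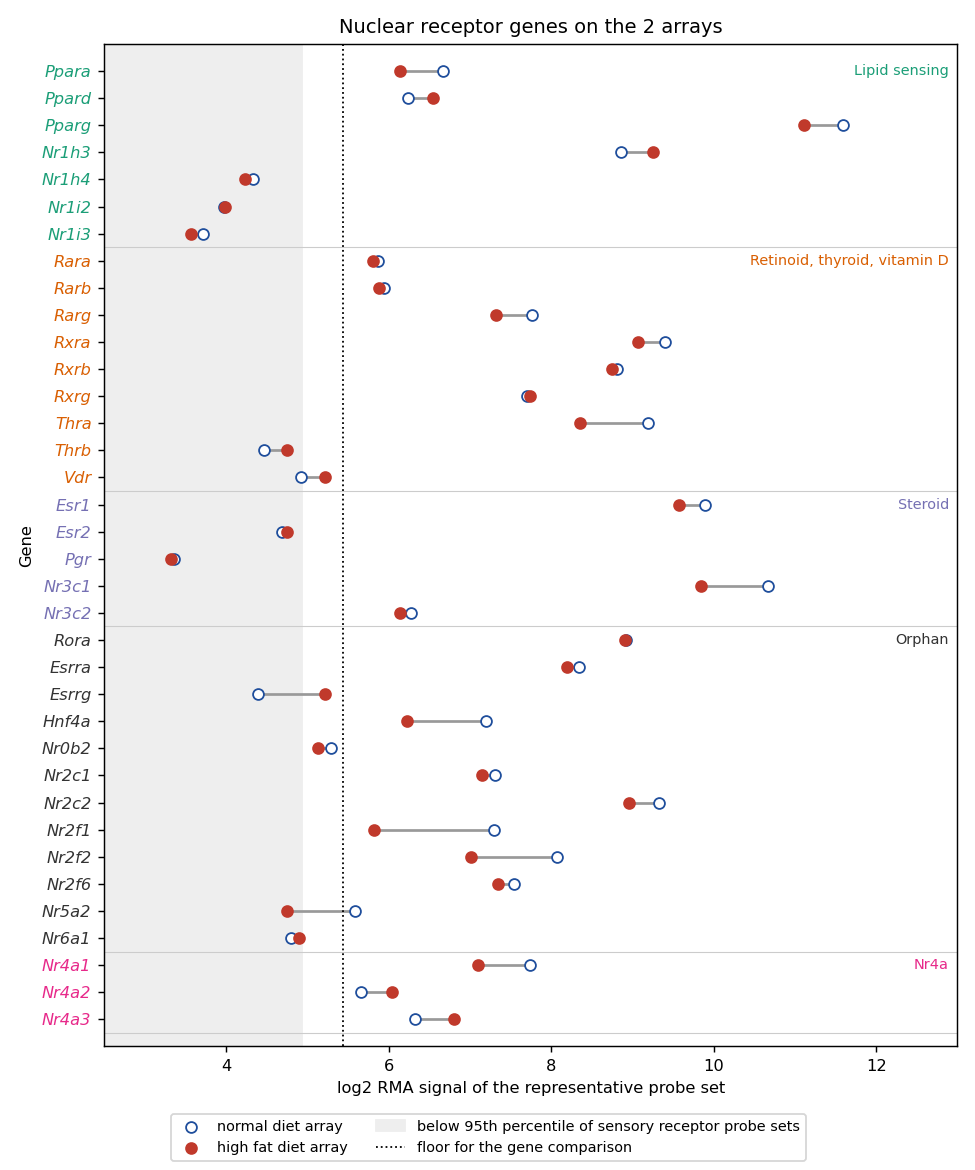
Log2 signal of the representative probe set of each of the 36 receptor genes on the control (normal) diet array (open circles) and the high fat diet array (filled circles), grouped by class. Grey shading lies below background (the mid-point of the 95th percentiles of both arrays), the dotted line is the floor at 5.44, and signals are to be compared within a gene, not between genes.

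The lipid sensing receptors went both ways and none reached 1.5-fold. Pparg read 11.59 on CE-2 and 11.12 on HFD32 on its single probe set, a difference of -0.47 or 1.39-fold lower. Ppara, which drives fatty acid oxidation mainly in liver and brown fat, read 6.66 and 6.13, a difference of -0.53, and its other 2 probe sets were lower too, at -0.21 and -0.73. The part of liver and brown fat transcripts in the difference of Ppara was not tested. Ppard, the form expressed in most tissues, differed in the other direction, with 6.24 and 6.54 (0.30), and 0.10 on a second, dimmer probe set. Nr1h3, which encodes the oxysterol receptor LXR alpha, read 8.86 and 9.25 (0.38). Thus 2 of the 4 genes above the floor were higher and 2 lower, with a median of -0.08. Nr1h4, the bile acid receptor FXR (4.33 and 4.23), and the xenobiotic receptors Nr1i2, or PXR (3.97 and 3.99), and Nr1i3, or CAR (3.72 and 3.57), were near background on both arrays. These 3 of 7 genes were not detectable above background in either pool.

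Targets of PPAR gamma went both ways, while most of those of the other PPARs were higher. Of 13 PPAR gamma targets 5 were higher and 8 lower, with a median of -0.03. Some of the 8 were lower by less than the 0.07 that centring adds, so the count in each direction depends on the scaling. Pck1 (-1.13), which makes the glycerol backbone of triglyceride from pyruvate, and the glucose transporter Slc2a4 (-0.74) were lowest, and Gpd1 (0.55) and Agpat2 (0.44), enzymes of triglyceride synthesis, were highest. Adipoq, the adipokine adiponectin, also named outside the rule, read 14.21 and 14.12, near the top of the signal scale. Adipocyte markers as a whole, 9 of 9 above the floor, had a median of -0.04. Targets shared by PPAR alpha and PPAR delta were higher in 9 of 11 cases, against 5873 of all 11778 genes. Of the 9, 2 passed 2-fold, and the list median was 0.25. The highest were Pdk4 (8.89 and 10.28, a difference of 1.39), which turns off pyruvate oxidation, and the lipid droplet coat gene Plin2 (11.94 and 13.12, 1.18). Cyp4a14, a fatty acid hydroxylase that liver makes, was lowest, at least 4.48-fold lower and near background on HFD32, and Ehhadh, second lowest, read 9.49 on both arrays.

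LXR targets were split, with 4 of 12 higher and 8 lower, a median of -0.03 and a mean of the other sign, 0.06. Some of the 8 were lower by less than the 0.07 that centring adds, so this split depends on the scaling. Abcg1 (8.35 and 9.37, a difference of 1.03), which exports cholesterol from macrophages, and Pltp (11.75 and 12.75, 1.01), a phospholipid transfer protein, were highest, while Mlxipl (-1.34) and Fasn (-0.62), genes of fatty acid synthesis, were lowest. Each of the 16 macrophage markers was higher, 9 by 2-fold or more (median 1.12), with signals from 6.25 to 12.50 on CE-2 and from 7.69 to 13.19 on HFD32. None of these markers was near background on both arrays. Their part in the differences of Nr1h3 and its targets was not tested. FXR targets were all lower in the 3 above the floor, with the bile acid transporter Slc10a1 near background on HFD32 and at least 5.39-fold lower, Baat at -0.30 and Abcb4 at -0.14. The list does not tell induced from repressed targets. The part of liver transcripts in these differences was not tested. Targets of Nr1i2 and Nr1i3 were lower in 5 of 7 cases, and Alas1 (0.36) and Cyp2b10 (0.18) were highest. The lowest were the drug-metabolizing enzymes Cyp3a11, which is also in the hepatocyte list and was at least 32.9-fold lower, and Cyp2c29, at least 17.5-fold lower, both near background on HFD32.

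The Nr4a genes, immediate early genes whose transcription is switched on by cAMP, calcium and inflammatory signals, differed in both directions. Nr4a1, which encodes Nur77, read 7.74 on CE-2 and 7.10 on HFD32 on its single probe set, a difference of -0.64 or 1.55-fold lower. Nr4a2, which encodes Nurr1, read 5.67 and 6.05 (0.38), with 0.14 on its other probe set above the floor and -0.33 to 0.06 on the 4 below it. Nr4a3, which encodes NOR-1, read 6.33 and 6.80 (0.47), while its second probe set above the floor, at 5.62 and 5.35, differed by -0.26. The class median was 0.38 with the brightest probe sets and 0.016 when each gene was given by the median over its probe sets, so the direction of Nr4a2 and Nr4a3 is not settled by these arrays. Of 9 other immediate early genes above the floor 4 were higher and 5 lower, and 3 of the higher ones passed 2-fold, so that the median was -0.02 and the mean 0.56. Atf3 (6.77 and 9.48, a difference of 2.71) and Egr2 (6.04 and 8.07, 2.02) were highest, and Egr1 (-0.58) and Jun (-0.27) lowest.

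Promoters of the 3 Nr4a genes are shown because the core of the cAMP response element, TGACG, recurs in them although the genes did not differ in 1 direction. Windows are cut as above, from RefSeq on GRCm38.p6, and capitals mark TGACG on either strand. Nr4a1 lies at chr15:101266596-101266895 on the plus strand, Nr4a2 at chr2:57123954-57124253 on the minus strand and Nr4a3 at chr4:48045055-48045354 on the plus strand.
Nr4a1: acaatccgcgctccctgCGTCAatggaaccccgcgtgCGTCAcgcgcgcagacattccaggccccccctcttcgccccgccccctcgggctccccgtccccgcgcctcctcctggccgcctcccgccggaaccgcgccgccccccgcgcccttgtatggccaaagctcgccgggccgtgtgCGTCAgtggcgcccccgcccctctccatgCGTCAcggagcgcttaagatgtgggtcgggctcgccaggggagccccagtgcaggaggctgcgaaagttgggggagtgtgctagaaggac
Nr4a2: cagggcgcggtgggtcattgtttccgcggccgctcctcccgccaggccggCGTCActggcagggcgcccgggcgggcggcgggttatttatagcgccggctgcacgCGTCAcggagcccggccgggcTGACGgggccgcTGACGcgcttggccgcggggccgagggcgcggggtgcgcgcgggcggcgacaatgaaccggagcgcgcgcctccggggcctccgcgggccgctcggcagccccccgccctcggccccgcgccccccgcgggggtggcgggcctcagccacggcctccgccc
Nr4a3: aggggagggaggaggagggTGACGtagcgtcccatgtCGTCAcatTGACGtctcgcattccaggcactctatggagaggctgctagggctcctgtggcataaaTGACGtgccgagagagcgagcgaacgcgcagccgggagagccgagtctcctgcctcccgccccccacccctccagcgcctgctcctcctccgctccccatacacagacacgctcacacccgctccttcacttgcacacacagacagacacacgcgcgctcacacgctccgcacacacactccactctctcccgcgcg
Each of the 3 windows holds 4 matches, and no other receptor gene with a window in the table has as many. Over all 32851 windows, 20.8% hold at least 1 match and 0.231% hold at least 4. In Nr4a1, matches begin at positions -233, -213, -69 and -40 from the start. A match describes the letters and is not a measured binding site, and the motif was chosen after the promoters were seen.

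The RefSeq promoter windows used here numbered 54, for 35 of the 37 receptor genes. Thra and Nr3c1 had no window among them. Matches to AGGTCA, the hexamer that most nuclear receptors bind, were in 10 of these 54 windows (18.5%), against 16.3% of all windows, on either strand. GC boxes were in 48.1% of the receptor windows against 35.7%, CCAAT boxes in 35.2% against 37.4%, TATA boxes (TATAAA) in 13% against 13.6%, E-boxes (CACGTG) in 11.1% against 7.15% and TGACG in 27.8% against 20.8%. Windows of the same gene can overlap, and the median content of G and C was 59.3% in the receptor windows and 52.7% in all.

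Transcripts of coactivators and corepressors, proteins that act with the receptors, were also mostly lower, by small amounts. Of 19 coactivator genes, all above the floor, 17 were lower on HFD32, 0 by 2-fold or more, with a median of -0.28. Among all genes at or above the floor 49.3% were lower. The gene lists were not recounted with each array centred on its median. Ppargc1a, the coactivator of mitochondrial biogenesis, read 6.10 and 5.14 (-0.95), Med13, of the mediator complex, was next at -0.60, and Prdm16 (0.35) and Smarcd1 (0.16) were highest. Corepressors were lower in 7 of 10 cases, also 0 by 2-fold or more, with a median of -0.28, from Lcor (-0.74) and Nrip1 (-0.51) to Tle3 (0.30) and Gps2 (0.04). Of 8 nuclear receptors outside the member list that were measured, 4 were above the floor, and the clock repressors Nr1d2 (10.26 and 9.56, -0.71) and Nr1d1 (8.57 and 7.97, -0.60) were lower, while Nr5a1 (0.16) and Esrrb (0.13) were slightly higher.

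**Figure D4:**
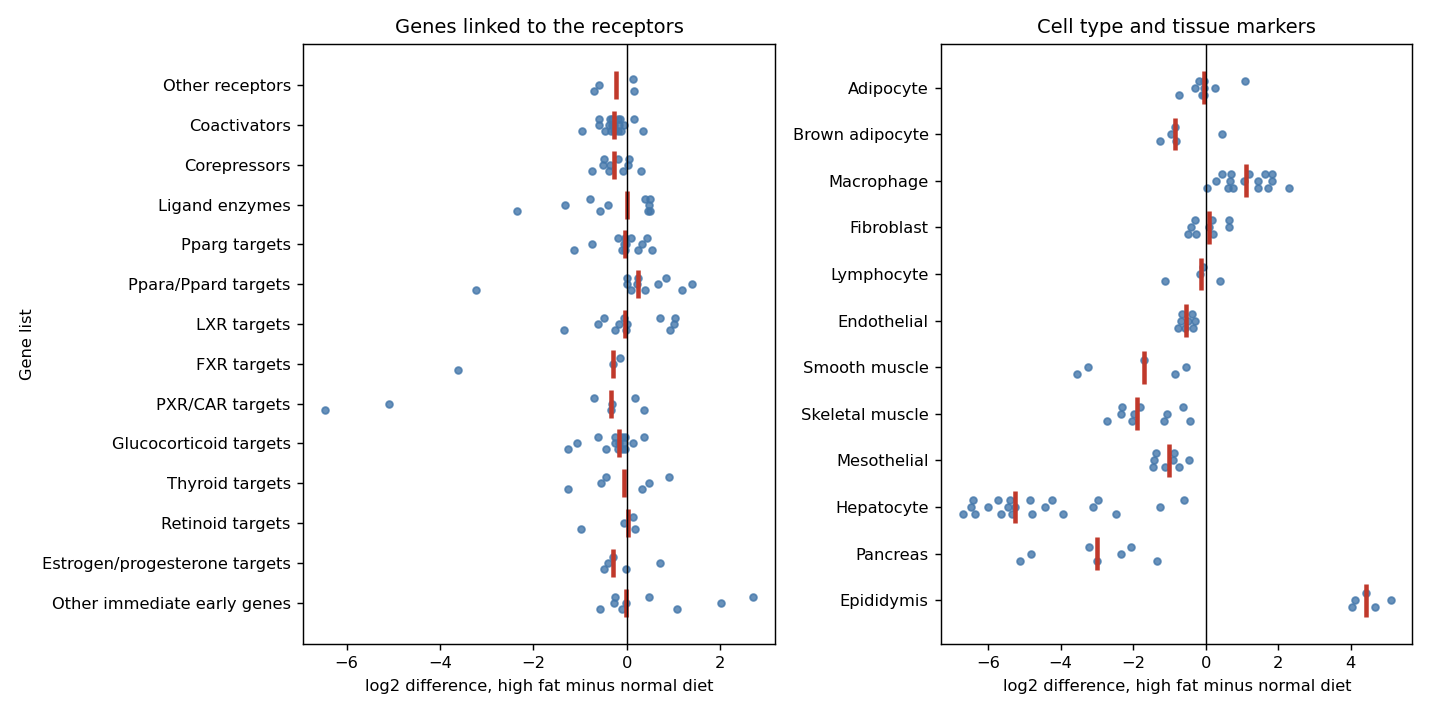
Difference (log2, high fat minus control diet) of each gene above the floor in the lists of genes linked to the receptors (left) and of cell type and tissue markers (right), with the list's median as a red bar. The receptor-linked medians lie between -0.33 and 0.25, whereas the medians of hepatocyte (-5.25), pancreas (-3.00) and epididymis markers (4.41) lie far from 0 with signals drawn as measured (-4.42, -2.66 and 3.81 with those under background raised to it).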

How the data were processed

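Adipose tissue RNA of 1 pool of 3 mice per diet was labelled with biotin and hybridised to 1 array per diet. The deposited log2 signals were made by the authors with RMA, per the submitters' processing notes, a method that corrects background, normalizes between arrays and joins single probes into probe sets. No label names its version. The log2 scale was inferred from the values, which ran from 2.04 to 14.28. Scanner files were not analysed here.

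Of 45101 probe sets, 34945 other than controls have 1 symbol in GEO's platform annotation. All 36 member symbols are the same in RefSeq by Entrez ID. Differences, floor and background were computed in Python 3.11.15 with pandas 2.3.3 and numpy 2.4.6. The counting code was run on simulated shifts larger than 2-fold, with noise smaller than the SD between probe sets. That run checks the code and says nothing about the accuracy of the differences reported here. A ratio whose dimmer signal is below background is given as a lower bound ("at least"), with that signal set to the 95th percentile. There is no test between the diets. Named genes are all members and, from the other lists, genes among the 2 highest and the 2 lowest above the floor. Not all of these are named, and some marker lists have no gene named. Alb, Adipoq, Fkbp5 and Tsc22d3, the markers Ass1 and Myocd, which were near background, and Dio2, below the floor, are named outside that rule. Members, classes and lists were chosen with earlier results of these data known. The alternatives were the floor, the fold, the choice of probe set, the scaling and the class borders.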

Additional observations from a re-analysis of the deposited data

How the results depend on the processing

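No paired analysis was possible because each diet has 1 array. The count of receptor genes at least 2-fold lower, 2 in the setting used above, was 1 with each array centred on its median (Nr2f2 at -0.99), 0 of 11 genes with the floor at the 75th percentile, which leaves out both genes, and 6 with a fold of 1.5, while it stayed at 2 in the other 5 settings that counted it. The count at least 2-fold higher was 0 in every setting tried. The Nr4a median was 0.016 when each gene was given by the median over its probe sets, and no Nr4a gene reached the higher floor. The other class medians moved by less than 0.27, the SD between probe sets of a gene, though that of the retinoid, thyroid and vitamin D class turned from -0.06 to 0.01 on centring, which adds 0.07 to all genes alike. By ratio several moved over 1.5 times: with the floor at the 75th percentile the steroid median was -0.57, the retinoid, thyroid and vitamin D median -0.19, the orphan median -0.15, the lipid sensing median -0.04 and that of all receptors -0.32. With no floor the steroid median was -0.13 and the orphan median -0.17, which it also was without the less specific probe sets. On centring the lipid sensing median was -0.01 and that of all receptors -0.11, and with the median of the probe sets the lipid sensing median was -0.14. With Hnf4a, Rora and Nr5a2 counted as lipid sensing, that class had -0.24, and counting Vdr there changed nothing because it is below the floor. Leaving Nr2f1 and Nr2f2 out of the orphan class, an alternative chosen after seeing the data, gave -0.17. Single genes moved by more than that SD in 5 of 36 cases with the median of the probe sets (Esrrg 0.36, Nr2c2 0.18, Nr5a2 -0.40, Nr4a2 0.02 and Nr4a3 0.12), in 1 without the _x_at and _s_at probe sets, which are less specific (Hnf4a -0.04) and in 1 with signals raised to background (Esrrg 0.30). The 11 genes below the floor can be read only as dim, and the number of arrays limits all precision.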
